A study of Mus musculus with 6 samples.

Results

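The genes described here encode the enzymes and transporters that carry glucose carbon through glycolysis, into the mitochondrion and around the tricarboxylic acid (TCA) cycle. The list holds 44 genes of the 45706 in the count table: 17 of glycolysis, including 2 glucose transporters and both lactate dehydrogenase subunits, 10 of pyruvate entry, and 17 of the TCA cycle with cytosolic malate dehydrogenase. They were listed by name, and the rule used no measured value, but earlier results of these data were known when the members were chosen. RNA was measured by RNA-seq in the LSK compartment (Lin- Sca-1+ c-Kit+), the bone marrow fraction that contains the hematopoietic stem cells and the multipotent progenitors, with 1 library per mouse. Both groups were littermate C57BL/6 males that carried a tamoxifen-inducible Cre recombinase expressed in nearly all tissues from the Rosa26 locus (RC/+). All mice received tamoxifen by gavage, 4.5 mg a day, on 4 days and, after a pause of 3 days, on 2 more, and were killed 3 days later. These days are those of the labels, and the study's methods give another number of doses. The 3 Ctrl mice were heterozygous for the conditional Setd1b allele (FD/+), so that Cre could delete 1 of their alleles too, and were 16 weeks old. The 3 cKO mice were homozygous (FD/FD), and were 16 weeks old in replicates 1 and 2 and 17 weeks in replicate 3. Setd1b is a histone H3 lysine methyltransferase, and the comparison asks how the enzyme genes differ between cKO and Ctrl cells.

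Glycolysis splits glucose in the cytosol into pyruvate with a small yield of ATP, and lactate dehydrogenase converts pyruvate to lactate when it is not oxidised further. The mitochondrial carrier and the pyruvate dehydrogenase complex bring pyruvate into the TCA cycle, which passes electrons to the respiratory chain, and the pyruvate dehydrogenase kinases inhibit that step. Hematopoietic stem cells are known for relying on glycolysis with restrained pyruvate oxidation, while their progeny draw more on mitochondrial respiration.

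The deposited values were read counts per gene, 13003573 to 21277519 per library (Ctrl median 16559472, cKO median 14512317), and levels are given as CPM, the count of a gene relative to the library total after scaling with TMM factors. All 44 members passed the filter on low counts, which kept 15184 genes. Each gene was tested with the quasi-likelihood test of edgeR, cKO against Ctrl, with Benjamini-Hochberg adjustment over all genes tested and a threshold of 0.05. The library numbers form 2 runs, the first with Ctrl replicate 1 and cKO replicates 1 and 2 and the second with Ctrl replicates 2 and 3 and cKO replicate 3, and differences were also taken within each run. Setd1b counts ran against the labels. The gene stood at 221, 194 and 223 CPM in the Ctrl libraries and at 272, 289 and 314 CPM in the libraries labelled cKO (log2 fold change 0.46 ± 0.07 SE, edgeR adjusted p = 0.0015). The allele removes a single exon, and counts over the whole gene do not show whether that exon was lost, so cKO below means the libraries labelled cKO.

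Of the 17 TCA cycle genes, 4 fell in the cKO libraries (Mdh2, Sdhd, Idh3a and Cs) and none rose, and the median log2 fold change was -0.18. In glycolysis 2 of 17 genes fell, Aldoa and Eno1, none rose, and the median was -0.08. Of the 10 pyruvate entry genes none passed the threshold in either direction, with 1 lower (Dlat) and 1 higher (Pdk2) at an unadjusted p under 0.05, and the median was -0.06. Over all 44 genes 6 fell (13.6%), against 3.79% of all genes tested, and none rose, against 3.88%. At an unadjusted p under 0.05, 16 members were lower (36.4%, against 11.5% of all genes tested) and 2 higher (4.55%, against 11.3%), Slc2a1 and Pdk2. The log2 fold change was negative in 35 of the 44 members and in 49.95% of all genes tested, whose median was 0.00. The falls were small: the largest of the 6 was a Ctrl level 1.35 times the cKO level. Without Ctrl replicate 3, and likewise without cKO replicate 2, 2 members passed, Mdh2 and Sdhd. Without cKO replicate 3 the calls were 2 in the TCA cycle and 2 in glycolysis.

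**Figure D1:**
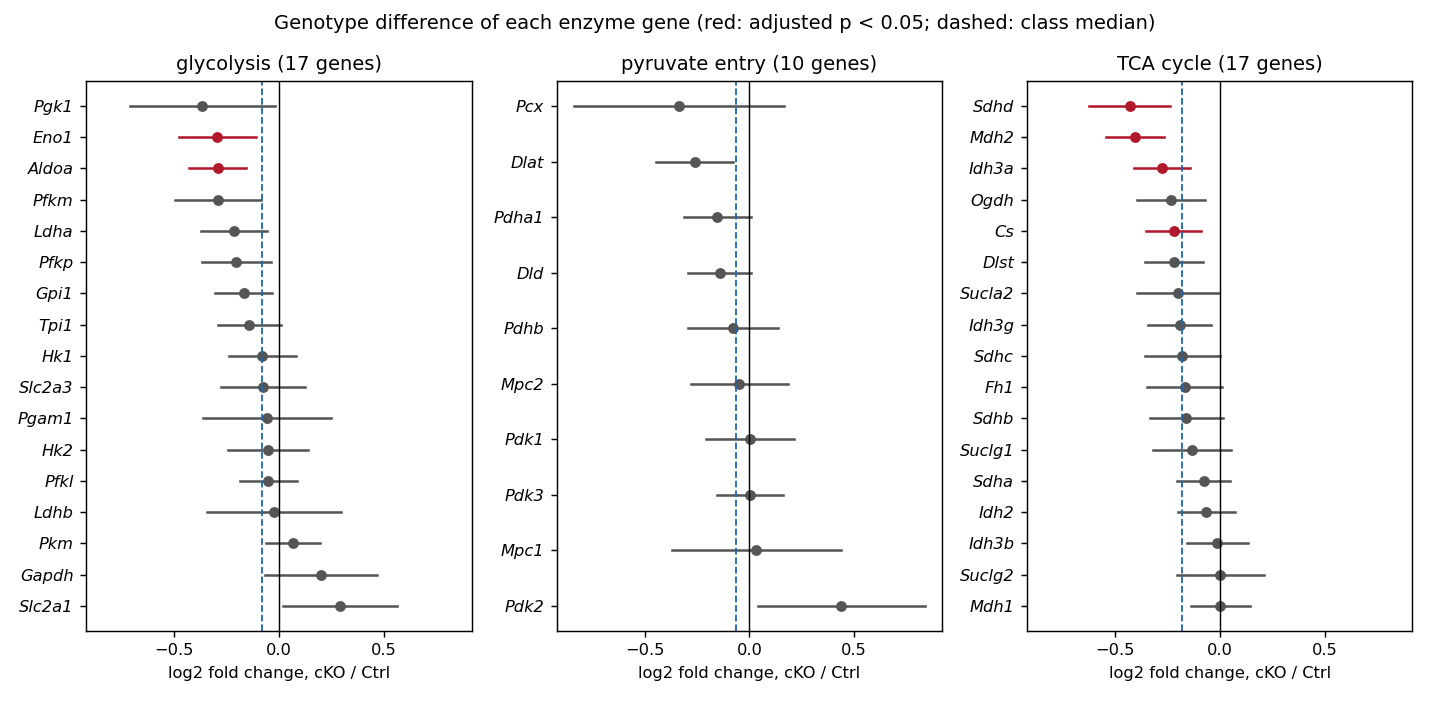
Log2 fold change, cKO over Ctrl, of each of the 44 genes (x axis) by class, with bars for the 95% interval of the edgeR fit, red for the 6 genes past the threshold and a dashed line at the median of the class. The medians lie at -0.08, -0.06 and -0.18, and all red points lie left of 0.

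Mdh2 (ENSMUSG00000019179, mm10 chr5:135778480-135790398, + strand), the mitochondrial malate dehydrogenase that regenerates oxaloacetate, had the lowest adjusted p of the list. It stood at 234, 248 and 237 CPM in the Ctrl libraries and at 188, 187 and 168 CPM in the cKO libraries. The groups did not overlap, and cKO replicate 3 was the lowest library. The log2 fold change was -0.40 ± 0.07 (SE, edgeR adjusted p = 0.0015), with -0.32 within the first and -0.53 within the second run of library numbers. Mdh2 passed the threshold under all 14 alternative fits, the 6 that each left out a library included. Its cytosolic counterpart Mdh1, which catalyses the same reaction outside the mitochondrion, stood at 125, 129 and 122 CPM in Ctrl and at 131, 128 and 118 CPM in cKO, so that the groups overlapped throughout. Its log2 fold change was 0.00, with a 95% interval from -0.14 to 0.14.

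Sdhd (ENSMUSG00000000171, mm10 chr9:50596338-50603849, - strand), a membrane anchor of succinate dehydrogenase, showed the largest fall on the log2 scale. Its CPM were 51.0, 60.5 and 56.4 in Ctrl and 42.0, 44.4 and 38.4 in cKO. Every cKO library lay below every Ctrl library, and the log2 fold change was -0.43 ± 0.09 (SE, edgeR adjusted p = 0.0087). The difference was -0.24 within the first run and -0.60 within the second, and the gene passed the threshold in all 14 alternative fits. The other subunits of the complex did not pass the threshold. Sdha, the flavoprotein that oxidises succinate, had a log2 fold change of -0.08, Sdhb, which carries the iron-sulfur clusters, had -0.16, and Sdhc, the other anchor, had -0.18.

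Idh3a (ENSMUSG00000032279, mm10 chr9:54586511-54604661, + strand) encodes the catalytic alpha subunit of the NAD-dependent isocitrate dehydrogenase. It stood at 149, 150 and 154 CPM in Ctrl and at 129, 126 and 119 CPM in cKO. The Ctrl libraries were close to each other and all cKO libraries were lower (log2 fold change -0.27 ± 0.06 SE, edgeR adjusted p = 0.015). The call was lost without Ctrl replicate 3 (adjusted p = 0.055), without cKO replicate 2 (0.061) and without cKO replicate 3 (0.051), with log2 fold changes between -0.30 and -0.24 over the 6 fits that left out a library. The gamma subunit Idh3g had a log2 fold change of -0.19, past no adjusted threshold, and the beta subunit Idh3b had -0.01 with a 95% interval from -0.16 to 0.13.

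Cs (ENSMUSG00000005683, mm10 chr10:128337832-128362479, + strand) encodes citrate synthase, which joins acetyl-CoA to oxaloacetate and opens the cycle. Its levels were 151, 157 and 160 CPM in Ctrl and 138, 131 and 133 CPM in cKO. The groups did not overlap but the gap was small (log2 fold change -0.22 ± 0.06 SE, edgeR adjusted p = 0.044). Cs passed the threshold in 8 of the 14 alternative fits, and lost the call with the run of library numbers as a covariate (adjusted p = 0.065) and in every fit that left out a library except that without Ctrl replicate 1.

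Among the 13 TCA genes that did not pass, Dlst and Ogdh came nearest. They encode the E2 and E1 subunits of oxoglutarate dehydrogenase, which makes succinyl-CoA. Dlst stood at 128, 126 and 116 CPM in Ctrl and at 103, 107 and 108 CPM in cKO (log2 fold change -0.22 ± 0.07 SE, edgeR adjusted p = 0.057). Ogdh stood at 237, 267 and 247 CPM in Ctrl and at 233, 215 and 191 CPM in cKO (log2 fold change -0.23 ± 0.08 SE, edgeR adjusted p = 0.076). In both genes every cKO library lay below every Ctrl library, although for Ogdh cKO replicate 1 was only slightly below Ctrl replicate 1. DESeq2 called both, with adjusted p of 0.037 and 0.036. The other 11, Fh1 (fumarate hydratase), Idh2 (the NADP-dependent mitochondrial isocitrate dehydrogenase), the succinyl-CoA ligase genes Sucla2, Suclg1 and Suclg2, and the Sdh, Idh3 and Mdh1 genes above among them, had log2 fold changes from -0.20 in Sucla2 to 0.00 in Mdh1. In the main fit the 95% interval of the log2 fold change excluded a fall of 0.4 for all 13, about the size of the Mdh2 estimate. The lowest bound, -0.396 in Ogdh, only just cleared it. The Ogdh estimate itself ranged from -0.30 to -0.17 over the fits that left out a library.

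**Figure D2:**
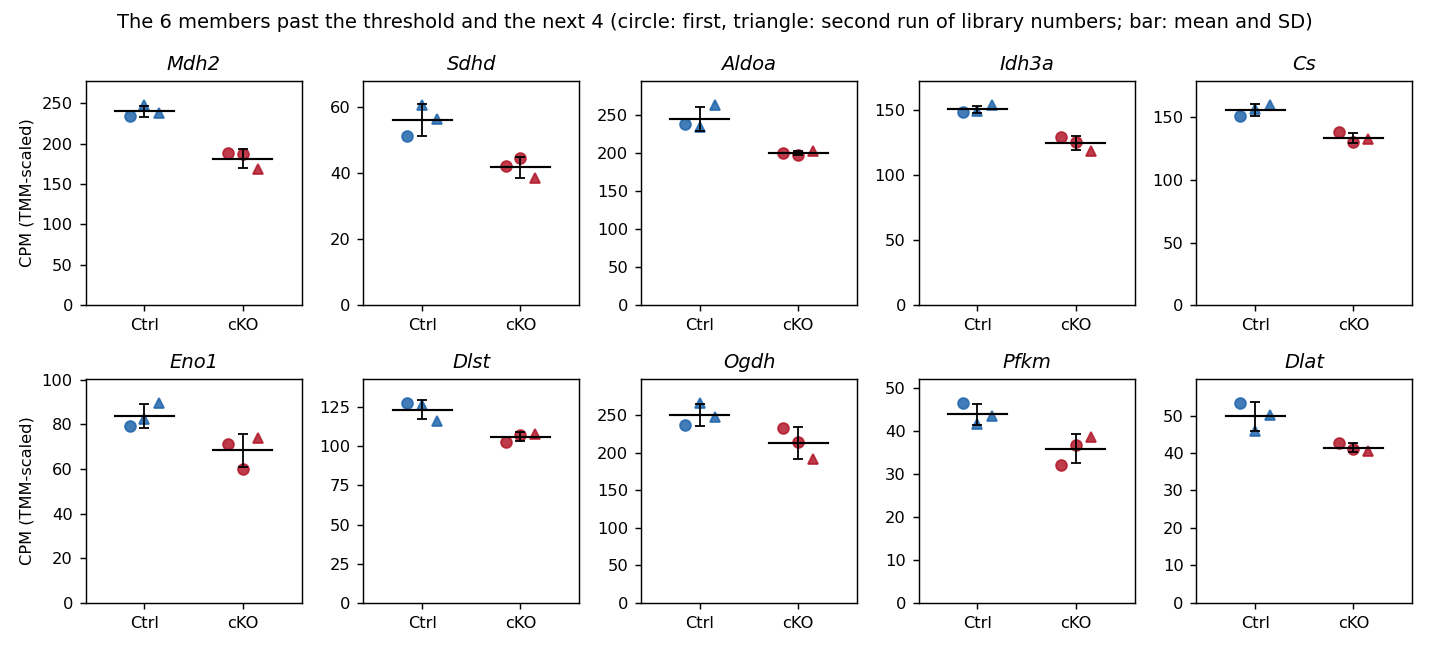
CPM with TMM factors (y axis, from 0) of the 6 genes past the threshold and the 4 next by adjusted p in each of the 3 Ctrl (blue) and 3 cKO (red) libraries, circles for the first and triangles for the second run of library numbers, with the mean and SD in black. In each of the 10 panels every red point lies below every blue point, in genes picked by adjusted p from the same comparison. That held in 13.4% of all genes tested.

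In glycolysis, Aldoa (ENSMUSG00000030695, mm10 chr7:126795234-126800751, - strand), the aldolase that cleaves fructose 1,6-bisphosphate, fell. It stood at 239, 234 and 263 CPM in Ctrl and at 200, 198 and 202 CPM in cKO. The cKO libraries were nearly equal and all below the Ctrl libraries, of which replicate 3 was the highest (log2 fold change -0.29 ± 0.06 SE, edgeR adjusted p = 0.011). The call was lost without Ctrl replicate 3 (adjusted p = 0.053) and without cKO replicate 2 (0.062).

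Eno1 (ENSMUSG00000063524, mm10 chr4:150236721-150248879, + strand), the enolase that forms phosphoenolpyruvate, lay just inside the threshold. Its CPM were 79.2, 82.3 and 89.6 in Ctrl and 71.3, 59.9 and 73.6 in cKO. The groups did not overlap, and cKO replicate 2 was the lowest library (log2 fold change -0.30 ± 0.09 SE, edgeR adjusted p = 0.0499). The call was lost with the run as a covariate (adjusted p = 0.094) and in 4 of the 6 fits that left out a library, where the adjusted p reached 0.23 without cKO replicate 2.

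Pfkm, the muscle-type subunit of phosphofructokinase, the committed step of glycolysis, stood at 46.5, 41.6 and 43.5 CPM in Ctrl and at 32.0, 36.8 and 38.6 CPM in cKO (log2 fold change -0.29 ± 0.10 SE, edgeR adjusted p = 0.079). Its groups did not overlap, yet it passed the threshold in none of the 14 alternative fits. Gpi1, the isomerase of glucose 6-phosphate, and Pfkp, the platelet-type subunit, also had every cKO library below every Ctrl library, with log2 fold changes of -0.17 and -0.20. Ldha, which makes lactate, had a log2 fold change of -0.21 but overlapped, with Ctrl replicate 1 at 296 CPM inside the cKO range of 279 to 299 CPM and the other Ctrl libraries at 347 and 362 CPM.

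The glycolytic genes with the positive estimates were Slc2a1 (0.29), Gapdh (0.20) and Pkm (0.07), none past the threshold. Slc2a1, the glucose transporter GLUT1, stood at 14.0, 18.3 and 18.0 CPM in Ctrl and at 21.2, 21.1 and 19.5 CPM in cKO. The groups did not overlap (edgeR adjusted p = 0.19), and the difference was 0.59 within the first run and 0.10 within the second. Pkm, the pyruvate kinase of proliferating cells, had the highest CPM per kilobase of exon among the members. It lay at 366 to 392 CPM in Ctrl and at 386 to 409 CPM in cKO. The 95% interval of its log2 fold change ran from -0.06 to 0.19. Hk1, Hk2, Pfkl, Slc2a3, Tpi1, Pgk1, Pgam1 and Ldhb did not pass either, and their estimates ran from -0.37 in Pgk1, where Ctrl alone ranged from 12.9 to 20.7 CPM, to -0.02 in Ldhb. In 13 of the 15 glycolytic genes that did not pass, the 95% interval excluded a log2 fall of 0.4. The exceptions were Pfkm and Pgk1.

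Gapdh, often used as a reference gene, stood at 13.1, 14.4 and 13.6 CPM in Ctrl and at 15.7, 16.0 and 15.6 CPM in cKO. The cKO libraries were all higher, by 0.20 ± 0.13 (SE) on the log2 scale (edgeR adjusted p = 0.38). These levels rest on 171 to 302 counts per library. Only reads with a unique alignment were counted, and the annotation names processed copies of Gapdh elsewhere in the genome. Together with the copy Gapdh-ps14 the level was 18.6 CPM in Ctrl and 19.1 CPM in cKO, a log2 ratio of 0.04. In all, 7 members had a copy named after them in the list used (Aldoa, Gapdh, Pgk1, Pgam1, Eno1, Ldha and Mpc1). The copies Aldoart1 and Eno1b are annotated as protein-coding, and Pgk1-ps3 held 0 counts in every library. Copies under other names were not searched, so the extent to which levels are uncertain is not known. Summed with Aldoart1 the log2 ratio of Aldoa was -0.29, and summed with Eno1b that of Eno1 was -0.32. With these 7 members left out, a choice made after the values were seen, none of the 11 remaining glycolytic genes passed and the median was -0.08.

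In pyruvate entry the 4 subunits of the pyruvate dehydrogenase complex, Pdha1 and Pdhb of E1, Dlat of E2 and Dld of E3, which oxoglutarate dehydrogenase shares, all had negative estimates, with a median log2 fold change of -0.15. Dlat, the acetyltransferase core of the complex, came nearest to the threshold. It stood at 53.4, 45.8 and 50.1 CPM in Ctrl and at 42.7, 41.1 and 40.6 CPM in cKO (log2 fold change -0.26 ± 0.09 SE, edgeR adjusted p = 0.084), with no overlap. Dld lay at 84.3 to 86.5 CPM in Ctrl and at 73.7 to 82.8 CPM in cKO (log2 fold change -0.14), also without overlap, whereas Pdha1 (-0.15) and Pdhb (-0.08) overlapped.

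The kinases that phosphorylate and inhibit the complex did not pass. Pdk1, a target of the hypoxia response, had a log2 fold change of 0.00, with a 95% interval from -0.21 to 0.21, and differences of 0.19 within the first run and -0.28 within the second. Pdk3 also had 0.00, with an interval from -0.15 to 0.16. Pdk2 stood at 8.95, 6.05 and 8.83 CPM in Ctrl and at 9.31, 11.4 and 11.4 CPM in cKO, without overlap (log2 fold change 0.44 ± 0.19 SE, edgeR adjusted p = 0.17). The carrier genes Mpc1 (0.03) and Mpc2 (-0.05) and Pcx (-0.34), the pyruvate carboxylase that refills oxaloacetate, lay between 4.51 and 24.4 CPM in Ctrl on average, and their intervals were wide, for Pcx from -0.84 to 0.16. Summed with its named copy Mpc1-ps, Mpc1 had a log2 ratio of -0.26, so its estimate near 0 depends on how reads were assigned. The copy held 106 to 227 counts per library, against 84 to 209 in Mpc1.

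Counted by overlap alone, every cKO library lay below every Ctrl library in 17 of the 44 members (38.6%, against 13.4% of all genes tested): 9 in the TCA cycle, 5 in glycolysis and 3 in pyruvate entry. The opposite held in 3 members, Slc2a1, Gapdh and Pdk2, where the share over all genes was 14.0%. Differences were negative within both runs of library numbers in 27 members (61.4%) and in 31.3% of all genes tested. The TCA median was -0.09 within the first run and -0.29 within the second, the glycolytic median -0.04 and -0.13, and the pyruvate entry median -0.01 and -0.19.

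The mean deviation of a class from its Ctrl mean, on the log2 scale, was also taken in each library. The TCA genes lay at -0.04, 0.04 and -0.00 in the Ctrl libraries and at -0.12, -0.15 and -0.25 in cKO replicates 1, 2 and 3. The glycolytic genes lay at -0.05, 0.01 and 0.04 in Ctrl and at -0.09, -0.10 and -0.11 in cKO. For both classes every cKO library was below every Ctrl library, and for pyruvate entry cKO replicate 1 (-0.01) lay among the Ctrl libraries. The median log2 fold change of glycolysis ranged from -0.13 to -0.10 over the fits that left out a library, all below the -0.08 of the full data. That of the TCA cycle ranged from -0.21 to -0.13, around its -0.18. Whether the classes differ from each other in their response was not tested.

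**Figure D3:**
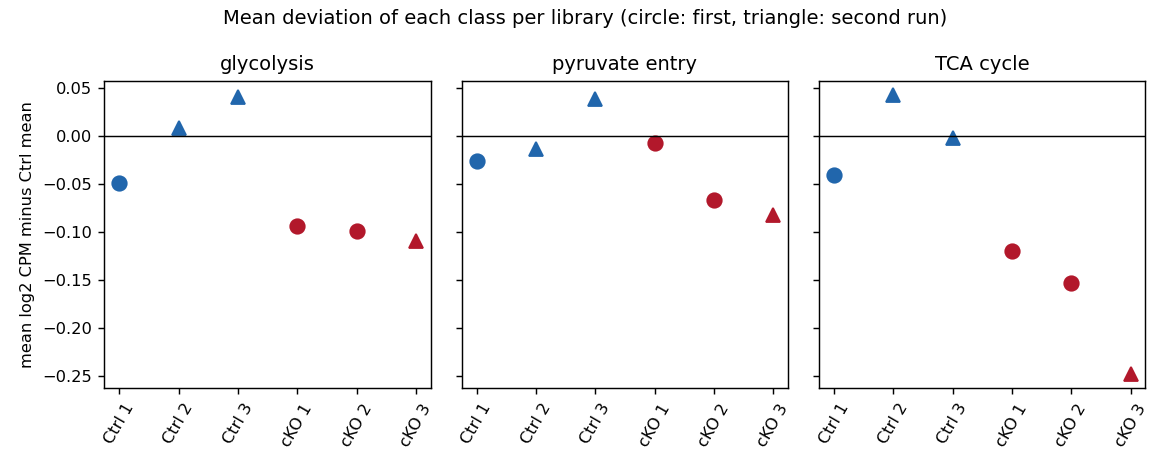
Mean over the genes of a class of log2 CPM minus the Ctrl mean of each gene (y axis), for each library (x axis), circles for the first and triangles for the second run of library numbers. The TCA value of cKO replicate 3 is the lowest, at -0.25, and only in pyruvate entry do red points reach the blue ones.

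Because isozymes and subunits of 1 enzyme can replace or accompany each other, the share of each in the sum of its family was computed per library from CPM per kilobase of exon, for 21 shares in 10 families. With 3 mice against 3 the exact permutation test cannot give a p below 0.1, which is 0.23 after Benjamini-Hochberg adjustment over the 21, so that none of the differences can pass 0.05. In 9 of the 21 shares the groups did not overlap. For the levels of single genes, which are another measure, that held in 13.4% (cKO lower) and 14.0% (cKO higher) of all genes tested. Shares within a family are tied, since a rise of 1 lowers the others, so the 9 are not separate differences. Mdh2 made up 57.5, 58.0 and 58.4% of the malate dehydrogenases in the Ctrl libraries and 50.9, 51.4 and 50.7% in the cKO libraries, a difference of -6.96 percentage points (exact permutation p = 0.1), with an SD of 0.43 points in Ctrl and 0.35 points in cKO. The share of Sdhd in succinate dehydrogenase was 26.0% ± 0.94 (SD, n = 3) in Ctrl and 22.0% ± 0.93 (SD, n = 3) in cKO, and that of Sdha 42.3% ± 1.62 and 45.7% ± 0.58. In the NAD-dependent isocitrate dehydrogenase, Idh3a went from 46.9% ± 1.04 to 44.3% ± 0.18 and Idh3b from 19.9% ± 0.90 to 22.5% ± 0.25, while Idh3g stayed at 33.2% on average in both groups.

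Among the hexokinases, Hk1 accounted for 50.2% ± 0.63 in Ctrl and 59.1% ± 2.65 in cKO, and Hk3, a hexokinase known from granulocytes and monocytes that is no member of the list, for 32.7% ± 2.48 and 20.4% ± 0.44. Hk3 itself fell from 91.9 ± 14.8 to 45.9 ± 3.68 CPM (SD, n = 3 each, log2 fold change -0.997, edgeR adjusted p = 4.7e-05), while the estimates of Hk1 and Hk2 were -0.08 and -0.05. The summed level of granulocyte and monocyte markers moved with the Hk3 share, at 3227 to 3844 CPM in Ctrl and 721 to 1086 CPM in cKO. Mpo alone stood at 2299 to 2933 CPM in Ctrl and 265 to 460 CPM in cKO, so the Ctrl sum is mostly this gene. The part of these markers in the Hk3 share was not tested. Slc2a1 made up 41.0% ± 2.08 of the 2 glucose transporters in Ctrl and 47.5% ± 3.09 in cKO. Pfkl, the liver-type subunit, held 56.1% ± 1.63 and 59.7% ± 1.74 of phosphofructokinase. The share of Ldha in lactate dehydrogenase, 93.1% ± 1.77 and 92.3% ± 0.43, overlapped between the groups.

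**Figure D4:**
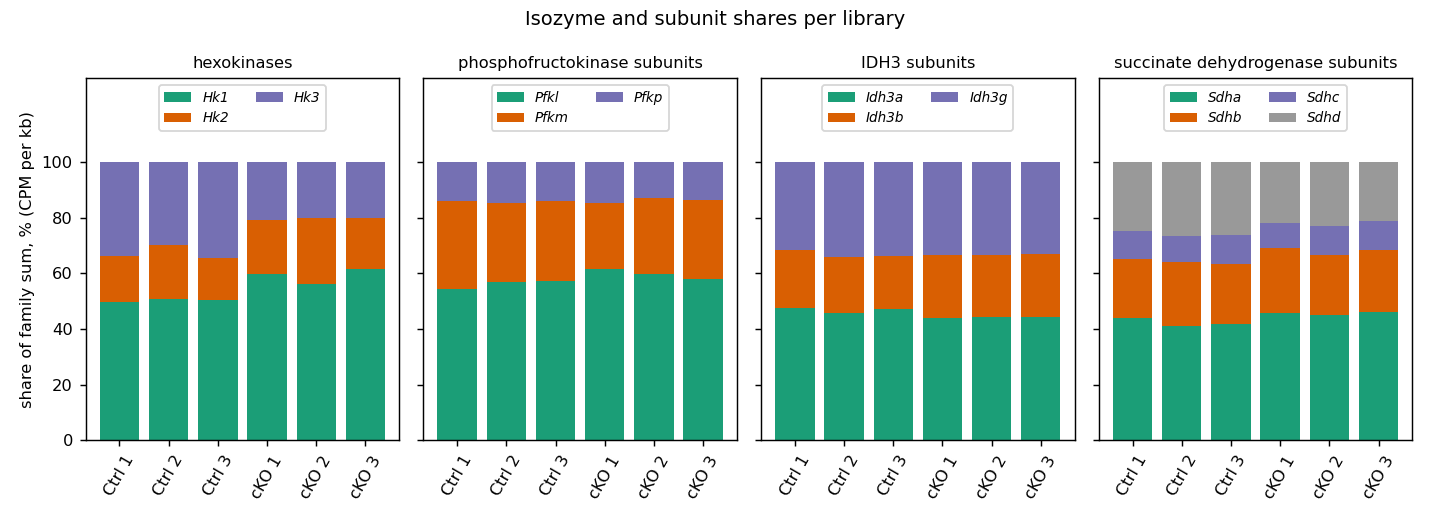
Share of each isozyme or subunit in the summed CPM per kilobase of its family (y axis, percent) in each library (x axis), for hexokinases, phosphofructokinase, NAD-dependent isocitrate dehydrogenase (IDH3) and succinate dehydrogenase. Hk3 takes 29.8 to 34.5% in the Ctrl libraries and 20.04 to 20.9% in the cKO libraries, and Sdhd 24.9 to 26.7% and 21.2 to 23.1%.

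Per kilobase of exon the Ctrl levels ran from 146 CPM in Pkm, followed by Ldha (112) and Idh2 (91.2), down to 1.06 CPM in Pcx. Mdh2 ranked 7th of 44 with 67.3, and Gapdh ranked 42nd with 3.31. These levels hold uniquely aligned reads only and are divided by all annotated exon bases of a gene. Their order therefore need not be that of transcript abundance. Across the 44 genes the log2 fold change had a Spearman correlation of -0.04 with exon length, -0.08 with GC content and -0.21 with the level (all genes tested 0.17, -0.03 and -0.12). These are descriptions across genes of the same 6 libraries. When the trend of each library with gene length was removed, 10 members fell, Dlat, Dlst, Ogdh and Pfkp besides the 6, and over all genes the calls went from 589 higher and 575 lower to 531 higher and 846 lower.

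Promoters are shown for Mdh2 and Mdh1, which share a reaction but not a difference, and for Sdhd and Cs. RefSeq (GRCm38.p6) gave a promoter for 41 of the 44 members, all but Idh3a, Slc2a3 and Sdhc. Each line gives the 250 bases before the RefSeq start, on the strand of the gene, with capitals for any of the motifs listed after them.
Mdh2, chr5:135778399-135778648 (+): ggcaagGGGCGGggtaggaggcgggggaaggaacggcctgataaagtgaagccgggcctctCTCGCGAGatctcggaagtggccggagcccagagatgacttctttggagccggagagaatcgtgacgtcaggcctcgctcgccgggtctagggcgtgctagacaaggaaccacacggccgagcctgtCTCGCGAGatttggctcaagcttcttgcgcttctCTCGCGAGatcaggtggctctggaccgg
Mdh1, chr11:21571935-21572184 (-): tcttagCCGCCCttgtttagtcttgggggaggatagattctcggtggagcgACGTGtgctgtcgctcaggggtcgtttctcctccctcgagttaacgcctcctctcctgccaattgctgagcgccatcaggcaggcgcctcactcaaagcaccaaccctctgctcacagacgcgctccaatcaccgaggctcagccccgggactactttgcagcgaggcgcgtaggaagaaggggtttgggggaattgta
Sdhd, chr9:50603850-50604099 (-): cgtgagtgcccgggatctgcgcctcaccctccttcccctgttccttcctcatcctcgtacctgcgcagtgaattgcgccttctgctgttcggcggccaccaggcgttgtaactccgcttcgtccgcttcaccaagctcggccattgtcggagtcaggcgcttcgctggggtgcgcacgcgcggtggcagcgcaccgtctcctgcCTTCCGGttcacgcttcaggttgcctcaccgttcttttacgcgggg
Cs, chr10:128337477-128337726 (+): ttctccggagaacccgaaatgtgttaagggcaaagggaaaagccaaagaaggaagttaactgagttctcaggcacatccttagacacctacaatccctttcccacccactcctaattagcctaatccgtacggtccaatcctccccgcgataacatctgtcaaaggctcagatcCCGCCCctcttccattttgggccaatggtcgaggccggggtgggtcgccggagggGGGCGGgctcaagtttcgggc

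The motifs were searched on both strands in windows of 300 bases, 250 before and 50 after the start, and the shares of members are set beside those of the 9846 tested genes with a promoter. The promoters were chosen differently, nearest to the gene start in members and first listed in tested genes, so these shares are not strictly alike. The core of NRF1, a regulator of mitochondrial genes, is GCATGCGC here and was found in 4.88% of members and 5.60% of tested genes. The ETS motif, CCGGAAG, which GABP binds, was in 14.6% and 19.0%. The core of hypoxia-inducible factors, ACGTG, was in 36.6% and 26.1%, and the E-box of Myc, CACGTG, which contains the former, in 9.76% and 10.4%. The motif of estrogen-related receptors, AAGGTCA, occurred in 7.32% of members and 3.09% of tested genes. The letters of SP factors, GGGCGG, occurred in 68.3% and 64.4%, and those of YY1, AAGATGGCG, in 2.44% and 3.40%. The Mdh2 window also held CTCGCGAG, a palindrome, 3 times. That motif was added after the sequence was seen, occurred in no other member and was present in 2.01% of the tested genes. The ETS letters were found in 5 of 15 TCA windows (Dlst, Idh3b, Idh3g, Sdhb and Sdhd), in 1 of 10 of pyruvate entry (Mpc1) and in 0 of 16 of glycolysis. The core of hypoxia-inducible factors was in 7 of 16 glycolytic windows and 4 of 15 of the TCA cycle. Of the 6 genes that fell, 5 had a window. The SP letters were in 3 of these (Cs, Mdh2 and Sdhd) and the motif of estrogen-related receptors in 2 (Eno1 and Sdhd). The ETS letters were in 1 (Sdhd) and CTCGCGAG in 1 (Mdh2). The NRF1, hypoxia-inducible factor, E-box and YY1 letters were in 0. The median number of CpG dinucleotides per window was 21 in members and 21 in tested genes. These matches are descriptions, were not tested, and say nothing of binding.

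Genes around the list were counted from further lists chosen by role. Of 25 other glycolytic genes, isozymes, lactate transporters and regulators, 17 were tested, 4 fell and 1 rose, with a median log2 fold change of -0.36. Those that fell were Hk3, Pklr, the pyruvate kinase of liver and red cells (7.60 ± 1.68 to 1.55 ± 0.89 CPM, -2.27), Slc16a1, the lactate and pyruvate transporter MCT1 (94.4 ± 5.73 to 69.6 ± 5.90 CPM, -0.44), and G6pc3, a glucose 6-phosphatase (-0.36). Aldoc, the aldolase of the brain, rose from 3.09 ± 0.68 to 7.38 ± 1.74 CPM (SD, n = 3 each, log2 fold change 1.25, edgeR adjusted p = 0.0061). Pgk2 and Slc2a4 were at 0 in every library. Of 10 tested other genes of pyruvate entry 1 fell, the malic enzyme Me2 (-0.32). The 12 tested other TCA genes had a median log2 fold change of -0.01.

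The pentose phosphate pathway, which branches off glycolysis and yields NADPH and ribose, had 3 of 10 genes lower (Prps1 -0.42, Taldo1 -0.27 and Pgd -0.24), none higher and a median of -0.18. Among 11 tested genes that feed glutamate and aspartate into the cycle, Slc25a12, the mitochondrial aspartate and glutamate carrier, fell (95.2 ± 3.42 to 67.2 ± 5.18 CPM, SD, n = 3 each, -0.50) and Glul, glutamine synthetase, rose (0.30). Of 19 transcriptional regulators of these pathways 2 fell and none rose. Myc, which drives many glycolytic genes, went from 475, 482 and 515 CPM in Ctrl to 363, 386 and 387 CPM in cKO (log2 fold change -0.37 ± 0.06 SE, edgeR adjusted p = 0.0017). Egln3, an oxygen sensor that acts on hypoxia-inducible factors and is itself induced by them, had a log2 fold change of -0.56, and Epas1, the hypoxia-inducible factor HIF-2 alpha, lay just outside the threshold (0.97 ± 0.83 to 3.32 ± 0.75 CPM, SD, n = 3 each, log2 fold change 1.67 ± 0.49 SE, edgeR adjusted p = 0.053) and passed it in 7 of the 13 alternative fits that tested it. Hif1a (0.06), Nrf1 (0.00), Gabpa (0.00) and Tfam (0.02) did not pass.

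Markers of other cell types moved with the genotype. All 12 genes chosen for the LSK gate were expressed, and their summed level was 1633 to 1815 CPM in Ctrl and 1673 to 1757 CPM in cKO, with Procr and Mecom among the genes that rose and none lower. Of 15 tested granulocyte and monocyte markers 12 fell and 1 rose, with the sums given beside Hk3. Of 14 erythroid markers 9 fell (544 to 616 against 348 to 400 CPM). Of 8 B cell and plasma cell markers 4 fell (276 to 634 against 112 to 193 CPM). The Ctrl sum there is mostly Ighm, at 194 to 431 CPM in Ctrl and 70.4 to 121 CPM in cKO. Of 3 T and NK cell markers 1 fell, Nkg7 (48.4 to 26.8 CPM on average), which makes up most of the sum (49.3 to 63.8 against 29.3 to 37.5 CPM). Cd4 (0.81) and Klrb1c (0.68, the median log2 fold change) had positive estimates, and none rose past the threshold. None of the genes of these lists in the table was at 0 in every library. Of 24 cycling cell genes 1 fell, Mcm5, and the sums were 6210 to 6514 and 5813 to 6429 CPM. The part of these markers in the differences of the enzyme genes was not tested, and in such bulk samples fewer cells of a type and less RNA per cell cannot be told apart.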

How the data were processed

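Libraries were prepared from total RNA with a stranded low-input kit that amplifies the cDNA and were sequenced as single reads of 75 bases, 1 library per mouse. According to the study's methods and the submitters' processing notes, the authors aligned the reads to mm10 with GSNAP and counted reads that aligned uniquely and to the strand of a gene with featureCounts (1.5.0) on Ensembl gene models. The deposited values were raw counts per gene, with no normalization and no pooling. Symbols came from GENCODE M21 by gene identifier (98.8% of genes), and the spans of 34 of the 44 members were those of the table.

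Genotypes were compared with edgeR 4.0.16 under R 4.3.3 (TMM, filterByExpr, quasi-likelihood test, genotype as the only term, 3 Ctrl against 3 cKO, Benjamini-Hochberg adjustment, threshold 0.05). DESeq2 1.42.0 served as an alternative. The SE was derived from the F statistic of the fit, as the size of the log2 fold change over its square root, and log2 CPM used a prior count of 2. Shares were tested with the exact two-sided permutation test of scipy. Replicates were numbered in the order of submission. P-values measure the spread between these mice.

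The members and gene lists were chosen with earlier results of these data known. Full values are given for the members past the threshold, the next 4 by adjusted p and Gapdh, and, of each further list, for at most 4 genes past the threshold. Promoters were taken from RefSeq, 1 per gene. For the tested genes it was the first listed, and for the members the one nearest to the deposited gene start. For Sucla2 and Ldha that promoter lay 27467 and 4329 bases from it. The alternatives were DESeq2 size factors, the DESeq2 test, no filter, a stricter filter that asked for 10 counts in all libraries, removal of length or GC trends, removal of abundant genes, the run of library numbers as a covariate, a threshold of 0.01, and each library left out. Leaving out members with a named copy was added after the data had been seen. Some genes of the further lists are not reported here.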

Additional observations from a re-analysis of the deposited data

How the results depend on the processing

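Mdh2 and Sdhd passed in all 14 alternative fits, and none of the 6 genes changed sign in any of them. The 6 members became 10 with the length trend removed and 2 at a threshold of 0.01, and ranged from 2 (without Ctrl replicate 3 or cKO replicate 2) to 7 with a library left out. The 2 glycolytic genes became 1 with the run as a covariate (Aldoa), 0 at a threshold of 0.01 and 0 without the members with a named copy, and ranged from 0 to 3 with a library left out. The 4 TCA genes became 2 at a threshold of 0.01 and ranged from 2 (without Ctrl replicate 3, cKO replicate 2 or cKO replicate 3) to 4. Pyruvate entry had 1 call, Dlat, with the length trend removed. The glycolytic median, -0.0791 with all libraries, became -0.148 with the length trend removed. With a library left out it ranged from -0.134 to -0.0959, below the full value each time. Without division by exon length the differences in share went from -12.3 to -7.78 points for Hk3 and from -3.96 to -2.16 points for Sdhd. The cause of these changes was not tested. Without Ctrl replicate 3, 331 genes were higher and 339 lower over all genes tested, and without cKO replicate 2, 311 and 307. The median half-width of the 95% interval, 0.18 on the log2 scale for the 38 members that did not pass, limits what could be called, and 34 of them excluded a fall of 0.4. No paired analysis was possible because the labels give the mice no shared replicate numbers, and for the littermates no source used here says which mice shared a litter.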
